A study of Caenorhabditis elegans with 2 samples.

Results

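LIN-1 peaks were examined at promoters that serve more than 1 gene. The members were peaks of the conservative list, made by setting the ranked peaks of one replicate against those of the other, whose summit lay inside the promoter windows of 2 or more protein-coding genes. A promoter window ran from 1000 bp upstream to 200 bp downstream of a gene start in the Ensembl annotation of WBcel235. Of 2267 conservative peaks, 2243 lay on the nuclear chromosomes, 909 of these had a summit in a promoter window, and 206 were members, of which 197 lay in the windows of 2 genes and 9 in those of 3. The other 703 promoter peaks lay in the window of 1 gene and are called single-gene promoter peaks. A summit within 200 bp of a tRNA, snoRNA, snRNA or rRNA gene was to be dropped only where 200 or more members were left. This applied to 14 members and would have left 192, so all 206 were kept.

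The data came from chromatin immunoprecipitation and sequencing (ChIP-seq) of whole Caenorhabditis elegans, in 1 group of 2 biological replicates. Both replicates were L4 larvae aged 48 hours, synchronised as L1 larvae by starvation after bleaching, of strain RW12212, in which CRISPR inserted a TY1, EGFP and 3xFLAG tag into lin-1 on its own chromosome. According to the description the precipitation used an antibody against GFP, while the antibody field of the labels gives lin-1, and which is right was not settled. The group has no untagged animals beside it, and the control experiment named in the labels was not used here, so signal from sources other than LIN-1 cannot be told apart from binding. Whole animals were used, so no peak can be placed in a tissue.

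LIN-1 is a transcription factor with an ETS DNA-binding domain. It acts at the end of the EGF, Ras and ERK signalling pathway and is known for its roles in the vulva and in the excretory duct. ETS proteins bind DNA around a GGAA core. In the compact worm genome, neighbouring genes often point away from each other and start a short distance apart, so that a single stretch of DNA serves as the upstream region of both genes; such a pair is called divergent. Many worm transcripts receive a spliced leader, so an annotated gene start can be a splice site and need not be the place where transcription begins.

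To show what lies at these summits, windows reaching 50 bp to each side of the summit are printed for 11 members, from the RefSeq sequence of WBcel235, which is the same assembly as ce11. All are intergenic and hold no annotated exon. The first 4 had the highest signals among members with such windows, and they lacked the ETS motif CGGAAG. Capitals mark CGGAAG and TGATAA, and also 8-base words that were frequent at member summits (described further on), on either strand.
Y17G9B.5/rpl-20 (chrIV:4750018-4750118, plus strand): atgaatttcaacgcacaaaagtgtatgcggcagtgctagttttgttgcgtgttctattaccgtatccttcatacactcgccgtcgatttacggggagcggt
tasp-1/K01G5.10 (chrIII:10759201-10759301, plus strand): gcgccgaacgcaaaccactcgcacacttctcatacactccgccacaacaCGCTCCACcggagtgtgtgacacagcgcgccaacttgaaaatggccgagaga
F44E5.4/F44E5.5 (chrII:11759404-11759504, plus strand): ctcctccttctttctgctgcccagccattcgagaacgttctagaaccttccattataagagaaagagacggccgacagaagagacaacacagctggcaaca
rpl-15/K11H12.8 (chrIV:654872-654972, plus strand): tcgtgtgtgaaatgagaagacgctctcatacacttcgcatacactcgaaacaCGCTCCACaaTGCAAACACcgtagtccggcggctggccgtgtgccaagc

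The windows at tasp-1 and rpl-15 share the word CGCTCCAC, and the window at rpl-15 also holds TGCAAACAC. None of the marked motifs or words was present at Y17G9B.5/rpl-20 or at F44E5.4/F44E5.5. Other motifs that were searched are not marked. Of these, the window at F44E5.4/F44E5.5 holds the core GGAA, on the strand opposite to the one printed, and the heat shock element GAANNTTC. The next windows carry the ETS motif CGGAAG. That of pqn-51/K11D12.14 follows from the rule for named members, and that of citk-2/F59A6.11 was chosen after values were seen because its signal was higher.
citk-2/F59A6.11 (chrII:4999291-4999391, plus strand): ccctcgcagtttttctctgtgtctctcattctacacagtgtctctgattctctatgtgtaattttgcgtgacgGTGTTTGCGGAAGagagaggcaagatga
pqn-51/K11D12.14 (chrV:5049427-5049527, minus strand): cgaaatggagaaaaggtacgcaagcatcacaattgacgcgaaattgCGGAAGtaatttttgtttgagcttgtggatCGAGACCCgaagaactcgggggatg

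A further window shows the GATA motif TGATAA at tbb-1/rib-2, the highest of the members that hold it, and the last 4, chosen after values were seen, show 8-base words of the families described further on.
tbb-1/rib-2 (chrIII:10742567-10742667, plus strand): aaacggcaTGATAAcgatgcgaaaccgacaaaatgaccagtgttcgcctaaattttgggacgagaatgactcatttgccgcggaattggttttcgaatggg
C41C4.9/chst-1 (chrII:8107287-8107387, plus strand): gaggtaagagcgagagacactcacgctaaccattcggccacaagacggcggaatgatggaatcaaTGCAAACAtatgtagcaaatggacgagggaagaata
gmps-1/cap-2 (chrII:10868903-10869003, minus strand): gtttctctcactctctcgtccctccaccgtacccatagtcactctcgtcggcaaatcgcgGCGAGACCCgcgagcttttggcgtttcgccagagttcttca
F57A10.2/haf-3 (chrV:15766333-15766433, minus strand): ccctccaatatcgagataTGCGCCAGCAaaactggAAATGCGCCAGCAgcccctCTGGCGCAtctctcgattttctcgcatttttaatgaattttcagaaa
rsp-1/rsp-2 (chrII:11453168-11453268, minus strand): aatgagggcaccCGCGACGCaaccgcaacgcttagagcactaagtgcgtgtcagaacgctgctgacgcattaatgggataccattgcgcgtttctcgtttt

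Summits were denser in shared promoters than in single-gene ones. The windows of 2 or more genes covered 2.37 Mb, or 11.0% of all promoter bases, and held 206 of 909 promoter summits, or 22.7%. That was 87.1 summits per Mb of shared window (exact 95% Poisson interval 75.6 to 99.8), against 36.7 per Mb of single-gene window (34.0 to 39.5). All intervals given are exact 95% ones, binomial for shares, and cover counting error only, since peaks are not independent replicates. The order was the same on each of the 6 nuclear chromosomes. It was most marked on chromosome III, with 132 summits per Mb of shared window against 43.0 per Mb of single-gene window, and least so on X, which held 12 members in 0.157 Mb of shared window (76.2 per Mb) and 151 single-gene promoter peaks in 2.96 Mb. No test was made of these densities. At the limit of the window, the members with the most distant second start were those at gsp-2 (981 bp, signal 5.25), F11C1.4 (970 bp, 3.64), ZK1251.3 (965 bp, 104) and flcn-1 (965 bp, 65.1). The peaks at gsp-2 and F11C1.4 repeat both signals of a stronger peak, and members of this kind had a median signal of 5.55. Just outside the window were single-gene peaks 1001 bp from the start of W09C5.12 (signal 131), 1002 bp from that of kars-1 (88.7) and 1009 bp from that of Y57A10A.13 (93.9).

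Most members lay between genes that point away from each other. For each summit, the pair is the 2 genes with the nearest starts. This pair was divergent at 181 of 206 members (87.9%, interval 82.6 to 92.0%), on the same strand at 24 and facing at 1. There were 197 such pairs, 9 of them with a pair of summits, and with the third gene of the 9 members in 3 windows 403 genes had a member summit in their window. The share follows in part from the genome, since 3020 of the gene pairs with overlapping promoter windows were divergent, 925 were on the same strand and 52 faced each other. A summit was present in the shared window of 184 of 3020 divergent pairs (6.09%, interval 5.27 to 7.01%), 30 of 925 same-strand pairs (3.24%, 2.20 to 4.60%) and 1 of 52 facing pairs (1.92%, 0.0487 to 10.3%). Neither difference was tested.

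Divergent pairs with starts at an intermediate distance had a summit most often. Of pairs with starts up to 250 bp apart, 12 of 376 had a summit (3.19%). The share was 11.2% (62 of 555) at 251 to 500 bp and 9.15% (79 of 863) at 501 to 1000 bp, and it was 2.53% (31 of 1226) at 1001 to 2000 bp. Part of this follows from how much sequence a pair shares. Per Mb of shared window there were 56.5, 148, 92.6 and 49.9 summits in the same order, so the bin of 251 to 500 bp was also densest by this measure. The shared window includes up to 200 bp inside each gene, which makes up most of it at the closest pairs. Densities over the sequence between the starts were not computed, so the order of the bins may differ there. Among divergent members the starts were a median of 609 bp apart (quartiles 375 and 836 bp, range 92 to 1831 bp).

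**Figure D1:**
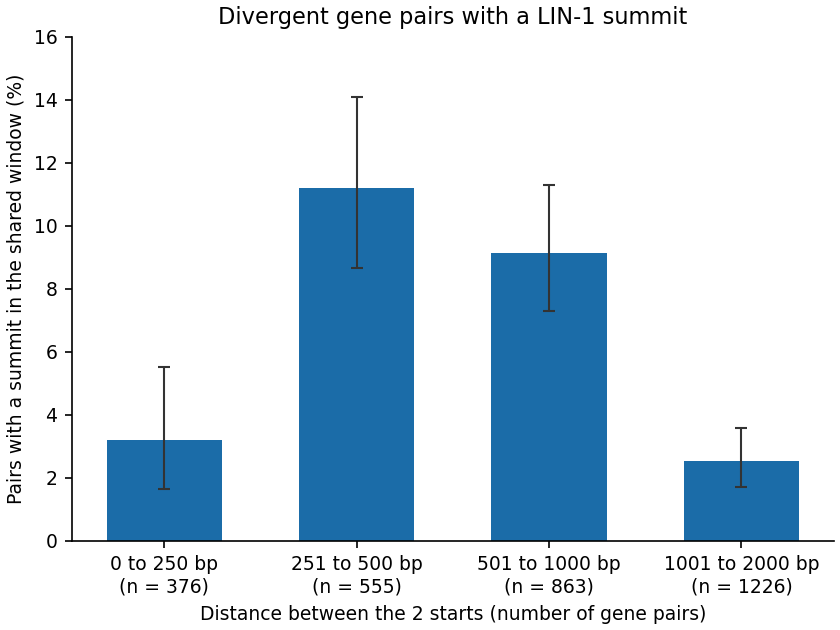
Share of divergent gene pairs with overlapping promoter windows that held a LIN-1 summit, by the distance between the starts of the genes in bp; error bars are exact 95% binomial intervals. The bars stand at 3.19, 11.2, 9.15 and 2.53%, and the intervals of the middle bins lie above those of the outer ones.

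Within the divergent pairs, most summits lay between the starts, around the middle as well as near one end. The summit lay between the starts at 171 of 181 divergent members, a median of 170 bp from the nearer start and 407 bp from the farther one. Among the 146 of these with starts 1000 bp apart or less, 89 summits (61.0%) lay in the middle 50% of the interval and 57 nearer to one of the ends, and 52 lay within 100 bp of the nearer start. At drr-2/set-16 the summit was 170 bp from the start of drr-2, which encodes a translation factor related to eIF4H, and 176 bp from that of set-16, which encodes a histone methyltransferase of the MLL family. At tasp-1/K01G5.10, by contrast, it was 56 bp from tasp-1, which encodes the protease taspase, and 729 bp from K01G5.10. Of all 206 summits, 161 were intergenic, 26 were in exons of non-coding genes (20 of them in genes of the class ncRNA alone), 7 in a 5′ UTR, 7 in an intron and 5 in a coding exon.

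**Figure D2:**
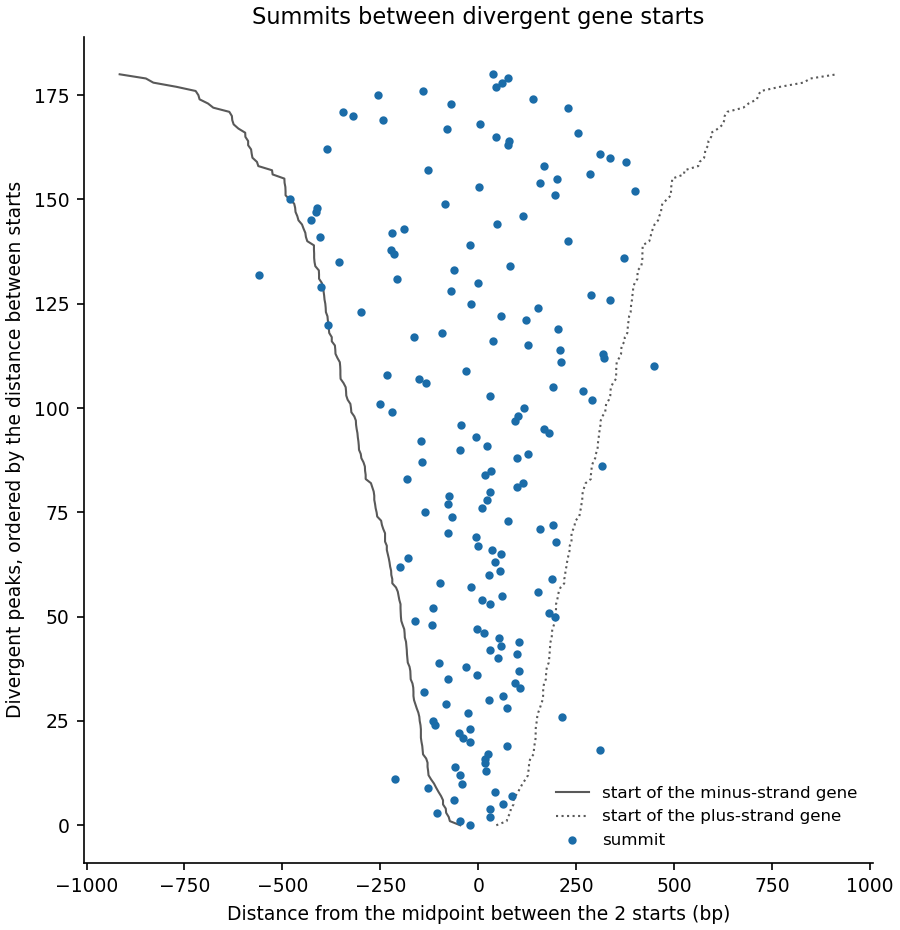
The 181 divergent members, one per row and ordered by the distance between the starts; the lines mark the starts of the minus-strand and the plus-strand gene and the points the summits, as distance in bp from the midpoint between the starts. At 171 members the point lies between the lines, and points are found near the midpoint as well as near the starts.

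The authors' signal of a peak, whose scale is not stated, ran from 2.28 to 353 over the members, with a median of 80.8 (quartiles 64.6 and 111), against a median of 74.1 over the single-gene promoter peaks. A signal above the median of all nuclear conservative peaks (73.8) was found for 121 of 206 members (58.7%), against 354 of 703 single-gene peaks (50.4%), where 50.0% of nuclear peaks lie above it by definition. This difference of 8.38 percentage points did not pass the threshold of 0.05 (adjusted p = 0.0586, two-sided Fisher's exact test, Benjamini-Hochberg over 3 tests). Without peaks that repeat both signals of a stronger peak it did (59.5% against 50.4%, adjusted p = 0.0414, Fisher's exact test). There were 11 such members, with a median signal of 5.55. Of the 100 highest nuclear peaks, 22 were members, 33 were single-gene promoter peaks and 45 lay in no promoter window. Among all 2243 nuclear peaks these classes held 206, 703 and 1334 peaks, so members were more frequent among the highest peaks than among all, which was not tested.

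Members were found in both replicates' own thresholded lists more often than single-gene promoter peaks. An overlap of 1 bp or more with both lists was seen for 82 of 206 members (39.8%, interval 33.1 to 46.8%), against 200 of 703 single-gene peaks (28.4%, 25.1 to 31.9%), and for 30.2% of all nuclear peaks (odds ratio 1.66, adjusted p = 0.00797, two-sided Fisher's exact test). A further 24 members were in replicate 1's list only (11.7%, against 13.2% of all nuclear peaks). In replicate 2's list only were 43 (20.9%, against 21.4%), and 57 were in neither (27.7%, against 35.3%). The call was lost at an IDR of 0.001 or less (66.7% of members against 54.5%, adjusted p = 0.0609, Fisher's exact test). It was also lost with windows of 500 bp upstream and 100 bp downstream (38.7% against 32.1%, adjusted p = 0.514) and of 2000 and 500 bp (33.9% against 28.8%, adjusted p = 0.106, Fisher's exact test in each).

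Each replicate's own signal at a member was taken from the highest overlapping peak of its ranked list, which holds peaks beyond the threshold as well. Over members it had a median of 38.3 (range 22.1 to 163, 203 members with a value) in replicate 1 and of 44.2 (22.7 to 204, 205 members) in replicate 2. The replicate 2 signal was the higher at 141 of 202 members, with a median ratio of 1.20. Over all nuclear peaks with both values it was the higher at 1433 of 2192, with a median ratio of 1.14. Over single-gene peaks it was the higher at 462 of 689 (1.15), so a higher replicate 2 signal is not particular to members. Across these 202 members the replicates' signals correlated with a Spearman coefficient of 0.588, and with a Pearson coefficient of 0.729 after a log2 transformation. Across 689 single-gene peaks these were 0.471 and 0.623. Peaks of one list share libraries and were selected for alike ranks, so these correlations are a description.

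**Figure D3:**
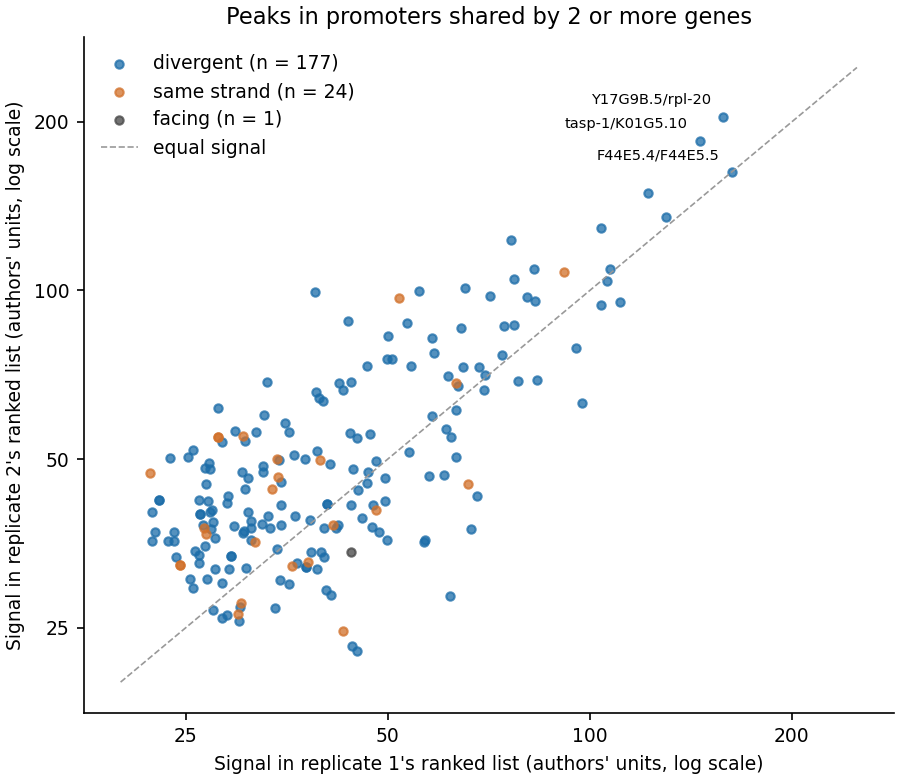
Signal of 202 members in replicate 1's ranked list (horizontal) and replicate 2's (vertical), in the authors' units on log scales, coloured by the orientation of the gene pair; the dashed line marks equal signal. Most points lie above the line (141 of 202), and the 3 highest peaks are named.

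The 20 members with the highest signal were all in both replicates' own lists, and replicate 2 had the higher signal at 14. Of the 20, 19 were divergent, as were 87.9% of all members. Members in both own lists had a median signal of 129, against 61.7 for those in neither. Ranking by signal thus favours peaks in both lists, and their presence there is no separate result. The highest, between Y17G9B.5 and the large-subunit ribosomal protein gene rpl-20, reached 353 (chromosome IV, 4749974 to 4750176), with 158 in replicate 1 and 204 in replicate 2. That between tasp-1 and K01G5.10 had 333 (chromosome III, 10759143 to 10759352), with 146 in replicate 1 and 185 in replicate 2. The third, between F44E5.4 and F44E5.5, a pair of genes for inducible heat shock proteins of the Hsp70 family, had 323 (chromosome II, 11759318 to 11759529), with 163 in each replicate. The replicates were thus close at the Hsp70 pair and further apart at the other pairs. Next came tag-340/nhl-2, with 269 (122 in replicate 1 and 149 in replicate 2); nhl-2 encodes a cofactor of microRNAs. The peak at rpl-15/K11H12.8 had 259.8 (129.7 and 135), and that at drr-2/set-16 had 232 (104 and 129).

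The other 14 had signals from 169.5 to 216. The peak at dnj-13/F54D5.9, beside a co-chaperone gene of the Hsp40 family, had 216 (106 in replicate 1 and 104 in replicate 2). Those at atx-2/ecps-1, beside the ataxin-2 gene, and at hsr-9/rps-19 had 214 (107 and 109) and 204 (76.3 and 123). At rps-1/ifet-1, a ribosomal protein gene paired with the gene of an eIF4E-binding repressor, the signal was 202 (111 and 95.2). At tbb-1/rib-2, a beta tubulin gene paired with a gene of heparan sulphate synthesis, it was 195 (82.6 and 109). At iff-2/F54C9.14, beside the gene of the translation factor eIF5A, it was 182 (77.0 and 105). At wip-1/larp-1, a WASP-interacting protein gene paired with that of an RNA-binding protein, it was 179 (82.9 and 95.9). Replicate 2 was the higher at most of these peaks, by the widest margin at hsr-9/rps-19, and replicate 1 at rps-1/ifet-1 and dnj-13/F54D5.9. The rest of the 20 were sec-61.G/F32D8.13, srlf-7/C42D4.13, mrpl-39/gly-7, C41C4.9/chst-1, gcy-33/cpr-9, H12C20.7/nhr-68 and rpl-7A/set-21, with signals from 169.5 to 205. Of these, C41C4.9/chst-1 and gcy-33/cpr-9 lay within 200 bp of a small RNA gene, and both had a lower signal in replicate 2 (78.8 and 62.9) than in replicate 1 (95.5 and 97.5). Over the 14 members near small RNA genes, replicate 2 was the higher at 5 of 13 with both values.

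**Figure D4:**
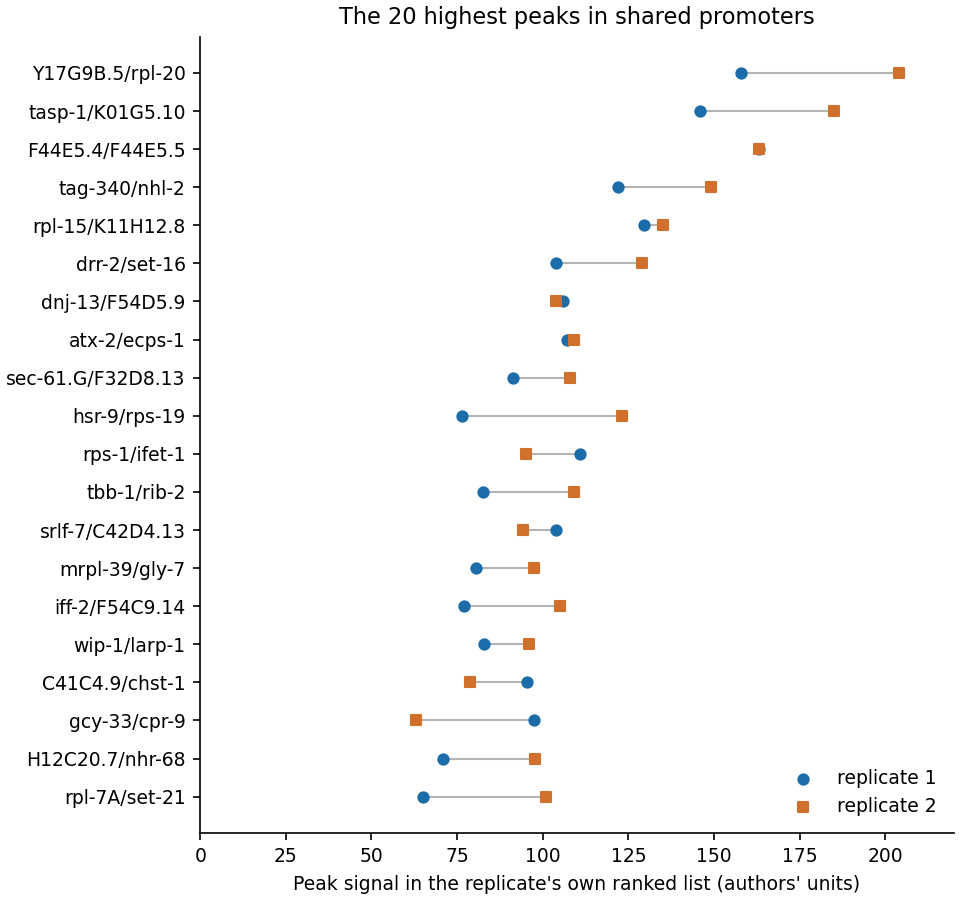
Signal of the 20 highest members in replicate 1 (circles) and replicate 2 (squares), in the authors' units from each replicate's own ranked list; a line joins the replicates of a peak. The top 3 pairs lie at 146 or above in both replicates, and replicate 2 is the higher at 14 of the 20.

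The 24 same-strand members had a median signal of 74.6, against 81.8 over the 181 divergent members, a difference that was not tested. The highest same-strand peak was at sec-61.G, which encodes the gamma subunit of the Sec61 translocon, upstream of it and of F32D8.13 (chromosome V, 10897282 to 10897433), where it reached 205 (91.4 in replicate 1 and 108 in replicate 2). Next were egl-30/C53H9.4, with 148 (52.0 and 96.9), where egl-30 encodes a G protein alpha subunit of the Gq class, and rps-28/Y41D4B.4, with 132 (63.2 and 68.4). In 9 of the 24 the starts were within 50 bp of each other, and in 19 the summit was upstream of both starts. The only facing member, elmd-1/hecw-1, with starts 51 bp apart, had a signal of 2.28 and was one of the peaks with repeated signals.

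Genes of the cytosolic ribosome were frequent among the genes of these pairs. Over all nuclear protein-coding genes, 403 of 19973 (2.02%) had a member summit in their window. Of 82 cytosolic ribosomal protein genes, 19 did (23.2%), 8 of the large and 11 of the small subunit. Promoter summits of any kind, shared or not, were also frequent at these genes, at 26 of the 82, against 1049 of all 19973. Of the 26, 73.1% had a shared one, against 38.4% over all genes with a promoter summit. A gene has to have a neighbour in range to be counted as shared. Of the 82 genes 61 had a shared window, against 6740 of all 19973, and the shares of 73.1 and 38.4% have to be read beside this. Among genes with a shared window, 31.1% of the ribosomal protein genes and 5.98% of all had a member summit. These genes lay at 18 members, with a median signal of 122 (61.6 to 353). Of the 18, 16 were divergent and 12 in both replicates' own lists, beside 87.9% and 39.8% of all members. They included rpl-20, rpl-15, rps-19 and rps-1, given above. The pair rpl-24.1/rps-10, at 63.3 (22.3 in replicate 1 and 40.3 in replicate 2), was the only one with a ribosomal protein gene on both sides.

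Lists of protein synthesis and folding were read against the same 2.02% of all genes and 5.98% of genes with a shared window. Of 42 translation factor genes, 5 had a shared summit (11.9%, or 18.5% of the 27 with a shared window), led by iff-2, eef-1G (151; 73.9 in replicate 1 and 76.7 in replicate 2), eef-1A.1 (96.2; 43.9 and 55.6) and eef-1B.1 (64.4; 26.3 and 39.9). Of 32 aminoacyl-tRNA synthetase genes, 2 did (6.25%, or 11.8% of 17), aars-1 with 156 and ears-2 with 104. Of 58 genes of heat shock proteins and endoplasmic reticulum chaperones, 10 did (17.2%, or 34.5% of 29), led by dnj-13, the mitochondrial chaperone gene hsp-60 (163; 74.6 and 86.3), the disulphide isomerase gene pdi-3 (138; 39.0 and 99.5) and enpl-1, which encodes a chaperone of the endoplasmic reticulum (91.0; 35.2 and 58.0). The replicates were furthest apart at pdi-3. This list did not hold F44E5.4 and F44E5.5, the Hsp70 pair given above (signal 323), so they are not among the 10. Of 70 mitochondrial ribosomal protein genes only mrpl-39 had a shared summit (1.43%, or 2.44% of 41), with 186 (80.6 and 97.5).

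In energy metabolism, 4 of 52 oxidative phosphorylation genes had a shared summit (7.69%, against 2.02% of all genes, or 11.1% of the 36 with a shared window, against 5.98%): nduf-2.2 with 138, atp-1, the alpha subunit of ATP synthase, with 125, mev-1, a subunit of succinate dehydrogenase, with 93.2, and ucr-2.1 with 74.5. The vacuolar ATPase, which acidifies lysosomes and works in the excretory canal, had 3 of 21 (14.3%, or 30.0% of 10): vha-1 with 104, vha-8 with 89.1 and vha-2 with 82.1. Splicing had 4 of 53 (7.55%, or 10.5% of 38), and the genes rsp-1 and rsp-2, which encode SR proteins of splicing, shared a summit at 104 (66.6 in replicate 1 and 37.5 in replicate 2). The other splicing genes were prp-19 with 76.9 and prp-8 with 63.8. Of the ubiquitin and proteasome list 2 of 64 had a shared summit, a share near that of all genes (3.12%, or 4.76% of 42), ubc-6 with 121 and rpn-3 with 88.9, the second of them opposite the chaperone gene hsp-110. Histones had 6 of 80 (7.50%), but 69 of the 80 had a shared window, and 8.70% of these is near the 5.98% of all such genes. The 6 were in 3 pairs, of which his-62/his-61 had 70.3 and his-4/his-3 had 64.1. Near-identical histone genes can share reads, so the peaks at them are uncertain.

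In each of 3 lists of pathways in which LIN-1 is known or of the vulva, 1 gene had a shared summit, a share of 3.03 to 4.17%, against 2.02% of all genes. From the EGF, Ras and ERK list only lin-7, which encodes a PDZ protein that helps to place the EGF receptor, was found (1 of 33 genes), at 48.6 (26.9 in replicate 1 and 30.6 in replicate 2), in neither own list. From the vulval list it was sqv-3 (1 of 24), a gene of glycosaminoglycan synthesis needed for vulval shape, at the vha-1 summit (104; 39.1 and 65.9). From the Wnt list it was the Dishevelled gene mig-5 (1 of 27), opposite the chaperonin gene cct-1, with 115 (62.2 and 54.7). The Notch list had 0 of 21 and the ETS family 0 of 9. Only 5 of the Ras genes, 5 of the Wnt genes, 5 of the vulval genes, 4 of the Notch genes and 1 ETS gene had a shared window at all. The Ras, Wnt and vulval lists thus had 1 of 5 each, where 5.98% of all genes with a shared window had a member summit, and such small counts say little. The synMuv genes, which repress vulval fate, had 2 of 24 (8.33%, or 2 of the 10 with a shared window): lin-53, with 162 (77.0 and 86.6), and lin-54, a DNA-binding subunit of the DRM complex, at the rpl-12 summit with 131 (69.5 and 66.5). The cell cycle list had cyclin E, cye-1, with 60.3, alone among 60 genes (1.67%, or 3.12% of 32).

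The remaining lists are again set beside 2.02% of all genes and 5.98% of those with a shared window. The list of Mediator, TFIID and coactivator genes had 3 of 46 (6.52%, or 13.6% of 22), with taf-4 at 91.9, pqn-51 at 82.3 and mdt-26 at 51.6. Nuclear hormone receptors had 3 of 274 (1.09%, or 6.25% of 48): nhr-68 with 174 (70.9 in replicate 1 and 97.6 in replicate 2), nhr-142 with 67.9 and nhr-47 with 64.3. Cuticle collagens had 2 of 171 (1.17%, or 4.08% of 49), col-159 and col-160, which shared a summit with 61.3. Chemoreceptors had 4 of 1314 (0.304%, or 1.27% of 316), srz-97 with 88.6, sri-5 with 80.8, srh-16 with 68.1 and srh-308 with 58.3. Over all members, both genes of the pair were in a list at 11, only 1 of them at 57 and neither at 138, so the lists describe a minority of the pairs.

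The ETS motif was rare at member summits. CGGAAG, on either strand within 50 bp of the summit, was found at 7 of 206 members (3.40%, interval 1.38 to 6.88%), against 24 of 703 single-gene promoter peaks (3.41%, 2.20 to 5.04%), and at 3.97% of all nuclear peaks. The difference of -0.0159 percentage points did not pass the threshold (adjusted p = 1.00, two-sided Fisher's exact test), and it was 0.470 points at an IDR of 0.001 or less and 1.05 points in windows reaching 100 bp to each side, also not past it. In windows 500 bp to each side of the member summits the share was 4.61%, and in all tiles of the same length of shared promoter sequence it was 3.02%. The 7 members were dnj-13/F54D5.9 (signal 216), srlf-7/C42D4.13 (188), citk-2/F59A6.11 (89.0), F29B9.11/jmjd-1.2 (88.0), pqn-51/K11D12.14 (82.3), Y7A5A.13/Y7A5A.2 (79.4) and rpl-24.1/rps-10 (63.3). In the windows printed above, the motif lies close to the summit at pqn-51 and nearer the end of the window at citk-2. The core GGAA was present at 49.0% of members, against 56.8% of single-gene peaks and 65.0% of windows to the sides of members. Those side windows were poorer in G and C (median GC 37.6%, against 47.5% at the member summits).

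The GATA motif was less frequent at member summits than at single-gene ones. TGATAA, chosen for this comparison after its shares were seen, was present at 13 of 206 members (6.31%, interval 3.40 to 10.5%), against 175 of 703 single-gene promoter peaks (24.9%, 21.7 to 28.3%), and at 23.1% of all nuclear peaks. This was a difference of -18.6 percentage points (odds ratio 0.203, adjusted p = 3.11e-09 over 9 motifs, two-sided Fisher's exact test). In windows 500 bp to the sides the shares were close, 10.4% for members and 11.0% for single-gene peaks. Of all tiles of the same length, 10.6% of shared promoter sequence and 10.3% of single-gene promoter sequence held the motif. The tiles are poorer in G and C than the summit windows, with a median GC content of 34.7% in both kinds of promoter, so these shares cannot be set against the summits directly.

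Members were richer in G and C, with a median GC content of 47.5% in the summit window, against 45.5% for single-gene peaks, and windows rich in G and C held TGATAA less often. In windows under 40% GC the motif was present at 7 of 34 members (20.6%), against 107 of 213 single-gene peaks (50.2%). Between 40 and 50% GC it was at 6 of 91 (6.59%), against 61 of 255 (23.9%), and from 50% GC upward at 0 of 81 members, against 2.98% of single-gene peaks. The members' share was below that of single-gene peaks in each GC class, with no test made within classes. Tiles of shared promoter sequence held the motif at 12.6% under 40% GC, 5.91% between 40 and 50% and 2.69% from 50% upward, so members lay above the tiles in the lowest class, near them in the middle one and had none in the highest. Under the other lists, windows and motif lengths tried the difference ran from -5.88 points (AGATAA) to -20.8 points. Of the 13 members with TGATAA, 4 were in both own lists and 6 in neither, beside 39.8% and 27.7% of all members. The highest was tbb-1/rib-2, and clec-41/dhc-3 had 114 (44.1 in replicate 1 and 68.6 in replicate 2). The median signal was 70.0 over the 13 members with the motif, against 81.0 over the 193 without it, and no ribosomal protein pair held it.

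**Figure D5:**
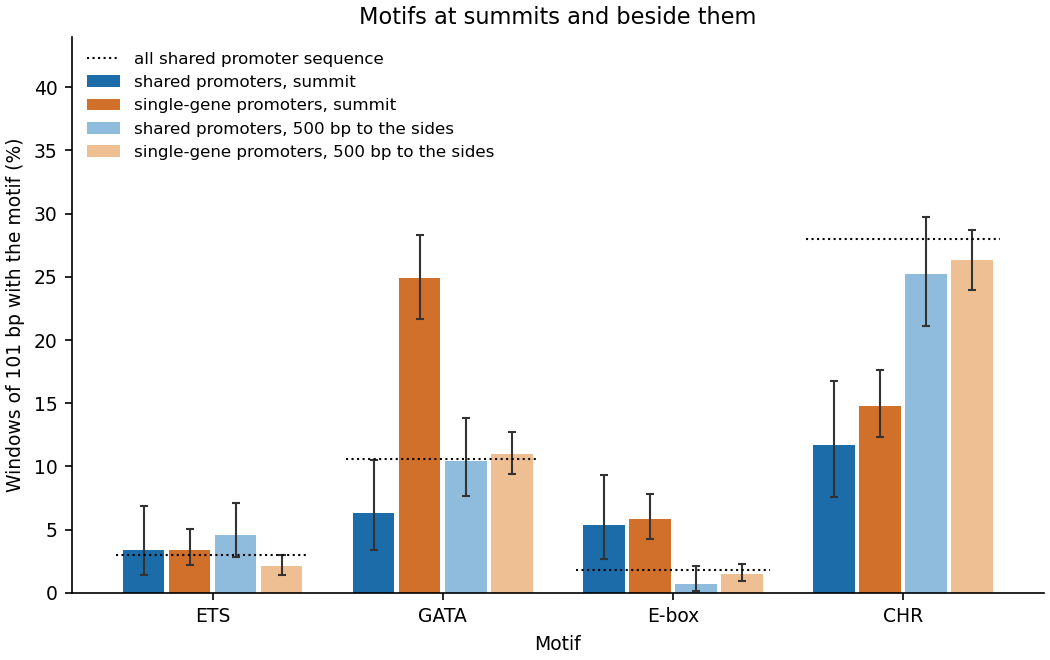
Share of windows reaching 50 bp to each side with the ETS, GATA, E-box and CHR motifs, whose letters are given in the text, at the summits of members and single-gene promoter peaks and 500 bp to their sides; error bars are exact 95% binomial intervals and dotted lines give all tiles of shared promoter sequence, which are poorer in G and C than the summit windows. GATA stands at 6.31% at member summits and 24.9% at single-gene summits, while for the other motifs the intervals of members and single-gene peaks overlap at the summit.

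Among the other motifs searched, the E-box CACGTG was at 5.34% of members, against 5.83% of single-gene peaks, and at 0.728% of windows to the sides of members. The CHR element TTTGAA was at 11.7% against 14.8%, below the 25.2% of windows to the sides of members. Single-gene peaks were likewise below the 26.3% of windows to their own sides. The side windows of members were poorer in G and C than the summits (median GC 37.6% against 47.5%). The heat shock element GAANNTTC was at 7.77% against 3.84% (adjusted p = 0.112, Fisher's exact test). CCGGAAGT was at 0 of 206 members (interval 0 to 1.77%), against 0.142% of single-gene peaks. TGACTCA was at 2 members (0.971% against 1.71%) and TGACGTG at 1 (0.485% against 1.85%). None of these differed past the threshold between members and single-gene peaks. CCGGAAGT contains CGGAAG, which contains GGAA, so these 3 counts overlap.

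Several 8-base words recurred at member summits. The 10 words with the largest excess at member summits over the windows 500 bp to their sides were listed, which uses the members' own sequence, so their shares are a description with no test. They form 6 families by overlap. Words of the first, GCAAACAC and TGCAAACA, were at 18 members (8.74%), against 2.56% of single-gene peaks, and at 1.36% of shared promoter tiles; the windows at rpl-15 and C41C4.9/chst-1 show them. The second, CGAGACCC and GCGAGACC, was at 16 members (7.77%) against 2.13%, as in gmps-1/cap-2. The third, GCGCCAGC, CTGGCGCA and CGCCAGCA, was at 15 (7.28%) against 2.84%, as in F57A10.2/haf-3, whose window holds it more than once. CGCTCCAC was at 12 members (5.83%) against 1.28%. All 12 were divergent, as were 87.9% of all members. AAATGCGC was also at 12 (5.83% against 1.28%), and CGCGACGC at 10 (4.85% against 0.996%), as in rsp-1/rsp-2.

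At least 1 of the 10 words was present at 71 members (34.5%), against 71 single-gene promoter peaks (10.1%), 2.43% of windows to the sides of members and 3.79% of shared promoter tiles, windows poorer in G and C than the summits (median GC 47.5% at members, 45.5% at single-gene peaks, 37.6% to the sides and 34.7% in the tiles). Words of 2 or more families were present at 12 members, at some of them as AAATGCGC and words of the third family in a single run. The members with CGCTCCAC had a median signal of 103, above the 80.8 of all members. Of these 12 members, 7 were in both own lists, beside 39.8% of all members. They were led by tasp-1/K01G5.10, rpl-15/K11H12.8, dnj-13/F54D5.9 and rps-1/ifet-1. Members with words of the first family had a median of 76.7, with 4 of 18 in both own lists, beside the same 39.8%.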

How the data were processed

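ChIP-seq peak lists of 2 biological replicates of 1 group were used. Per the labels, the assembly is ce11. The sources used here give no aligner, peak caller or software version, and the read depth is unknown. The deposited lists order peaks by their irreproducible discovery rate (IDR), per their names; the conservative list and the list called the series list here use both replicates. The authors gave each peak a signal (scale not stated) and a score, and their ranked lists add the −log10 of the global IDR. Thresholded lists hold peaks at an IDR of 0.01 or less. A summit is the peak's highest position. Coordinates are 1-based.

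Gene starts came from Ensembl and sequence from RefSeq. Members were compared with single-gene promoter peaks by two-sided Fisher's exact tests, adjusted (Benjamini-Hochberg) over 3 planned tests and, for motifs, over 9; the motif family other than CGGAAG was added after the shares were seen. The members, lists and tests were chosen with earlier results of these data known. Named members are the 20 with the highest signal, the 3 highest of each orientation and up to 4 genes of each of 21 lists. A replicate's signal is that of the highest overlapping peak of its ranked list. The alternatives were the series list, each replicate's own list, an IDR of 0.001, other promoter and motif windows and motifs, and lists without repeated signals or peaks near small RNA genes. Summit classification and motif search were tested on simulated data. Python 3.11.15, pandas 2.3.3, numpy 2.4.6 and scipy 1.17.1 were used.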

Additional observations from a re-analysis of the deposited data

How the results depend on the processing

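No paired analysis was possible because there is only 1 group. The number of members was 206 and fell to between 111 and 135 in a single replicate's own list, to 123 at an IDR of 0.001 or less and to 124 with windows of 500 and 100 bp, and it was 404 with windows of 2000 and 500 bp. The shared share of promoter summits was 22.7% and lay between 24.0 and 25.7% in a single replicate's own list, and at 18.3 and 31.9% with the narrower and wider windows. The divergent share was 79.5% with the wider windows. The difference in the ETS motif was 0.470 points at an IDR of 0.001 and 1.05 points in motif windows reaching 100 bp to each side, against -0.0159; without one replicate it ran from -2.90 to -0.316. The difference in presence in both own lists was 12.1 points at an IDR of 0.001 and 6.58 and 5.11 points with the narrower and wider windows, no longer past the threshold, and that in signal was 9.11 points without repeated signals, now past it. The cause of these changes was not tested, beyond the fact that stricter lists and narrower windows hold fewer peaks. For signal, leaving out a replicate gave 9.30 to 11.8 points, and for the GATA motif -16.3 to -14.6 points. The GATA difference kept its direction and its unadjusted p stayed under 0.05 in all 12 alternatives. The read depth is unknown, so no limit from it can be given.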

Other observations

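The word CATACACTC, noticed in the printed windows and counted after that, was at 5 of 206 members (2.43%), against 1 of 703 single-gene promoter peaks (0.142%), and at 0 of 412 windows to the sides of members. Its first 8 bases, CATACACT, were at the same 5 members, against 4 of 703 single-gene promoter peaks (0.569%). The 5 were Y17G9B.5/rpl-20, tasp-1/K01G5.10, rpl-15/K11H12.8, rps-1/ifet-1 and C49C3.9/C49C3.21, with a median signal of 259.8, and no test was made because the word was read off high peaks. At 8 of the 9 pairs with a pair of summits, the weaker summit carried repeated signals; the other was at atx-2/ecps-1, where the weaker summit had a signal of 64.6.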
